A study of Xenopus laevis with 4 samples.

Results

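The homeobox transcription factors of ectoderm and body axis were followed on 4 arrays of Xenopus laevis ectoderm. They were the genes whose platform symbol, read without its .L or .S ending, belonged to the hox, six3 and six6, pax, dlx, otx, irx, lhx, msx, nkx, pitx, cdx, meis, pbx, gbx, ventx, tgif or pou families. The rule found 179 probe sets. Of these, 172 carried 1 symbol and stood for 111 genes, of 11303 genes named on the array, while 7 carried several symbols and were left out. Where a gene had more than 1 probe set, as 36 of the 111 did, the one with the highest mean signal stood for it. An .L ending names the long and an .S ending the short chromosome set of this frog, although the RefSeq gene table places hoxa11.S on 6L. Probes may be shared where such copies are near-identical.

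Embryos of both groups received synthetic ICD mRNA by injection at the 2-cell stage; in this field ICD usually names the Notch intracellular domain. In the ICD group (2 arrays) this was the only mRNA. The ICD+MCI-HGR group (2 arrays) also received mRNA for MCI-HGR, a dexamethasone-inducible form of multicilin, the coiled-coil regulator that switches on multiciliated cell formation. Presumptive ectoderm was cut at stage 9 to 10, dexamethasone went onto explants of both groups at stage 11.5, and harvest followed after 5 h, near stage 14, so the controls carry ICD and dexamethasone too. The labels number the arrays 1 and 2 in each group and do not say what a number shares, or whether replicates came from separate clutches. P-values therefore reach no further than the spread between these samples, which the fits partly pool over genes. The number of arrays limits the precision.

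Homeobox genes encode DNA-binding proteins that give cells their position and type. In the early frog embryo, BMP signalling keeps dlx, msx and ventx genes on in ventral ectoderm and mesoderm and in future epidermis. The otx, six3, lhx and pax genes mark parts of the anterior neural plate and its border, and cdx genes switch on hox genes in the posterior of the embryo. Meis and Pbx proteins are of the TALE class, whose homeodomain has an extended loop, and act as partners of Hox proteins, while TGIF proteins of the same class are repressors linked to TGF-beta signalling. The group comparison asks which of these regulators differ when multicilin is made active in ectoderm that received ICD mRNA.

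Signals were intensities from the MAS5 algorithm on a linear scale, 1 value per probe set and array. The median over 32539 probe sets came to 45.4 and 37.6 on the ICD arrays and 44.2 and 37.1 with MCI-HGR, so arrays of the same number were alike. The highest of 17 tag control probe sets, which match no frog gene, read between 9.2 and 13 on the 4 arrays and served as the level of background. All 18 epidermis markers passed the filter on low signals, and their signals summed to 53785 and 76938 on the ICD arrays, and to 60553 and 79981 with MCI-HGR. The targeted gene, mcidas.S, read 9.7 and 17.1 on the ICD arrays and 384.2 and 141.5 with MCI-HGR, the direction the labels give, although a probe set cannot tell injected from endogenous RNA. The actin control's ratio of middle to 3′ signal, a sign of RNA integrity, came to 0.64 and 0.652 on the ICD arrays and 0.569 and 0.401 with MCI-HGR. That ratio was lower with MCI-HGR in both numbers, and its part in the gene differences below was not tested.

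Many homeobox genes were close to background. Of the 111, 51 were above the highest tag control on all 4 arrays, 10 on 3 arrays, 17 on 2 arrays, 16 on 1 array and 17 on none. The filter on low signals kept 69 for testing and left out 42. All 3 cdx, 7 dlx, 3 otx, 3 msx, 6 ventx and 3 tgif genes were tested, against 10 of 25 hox, 2 of 8 lhx, 4 of 11 nkx and 2 of 5 six3 and six6 genes. Of the 25 hox genes, 2 were above background on all 4 arrays and 5 on none.

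With MCI-HGR, both meis3 homeologs, six3.L, pax3.L, hoxb9 and lhx5.S rose, and dlx6.L, dlx5.L, msx1.L, both tgif2 homeologs and cdx4.L fell. A gene is said to have risen or fallen where it passed limma's adjusted p of 0.05 over 9380 genes with the replicate number as a block, a fit that compares the 2 groups within each number. In that fit 6 of 69 homeobox genes (8.7%) were higher, beside 630 of all genes tested (6.72%), and 6 (8.7%) were lower, beside 311 of all genes (3.32%). The main fit, without the block, called 0 homeobox genes and 0 of 9380 genes (0.0%) in either direction. At an unadjusted p of 0.05 it had 3 homeobox genes higher (4.35%), meis3.L, meis3.S and six3.L, beside 343 of all genes (3.66%), and 0 lower, beside 42 of all genes (0.448%). The share of homeobox genes higher was thus near the share among all genes in both fits.

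The median homeobox gene was close to 0 in its group difference. The median log2 difference, ICD+MCI-HGR minus ICD, was -0.024 over 69 genes, beside 0.0065 over all genes tested. Within number 1 it was -0.079 and within number 2 it was -0.033. In value, 16 homeobox genes were higher and 25 lower in both numbers, which makes 59.4% with the same direction in both, beside 61.7% of all genes. More than a 2-fold difference between groups was seen in 4 homeobox genes (5.8%), beside 3.87% of all genes.

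The TALE cofactor meis3, which in the frog patterns the hindbrain, changed by the largest amount among genes that were above background on all 4 arrays. Signals of meis3.L were 86.6 and 132.5 on the ICD arrays and 286.4 and 387.5 with MCI-HGR. Those of meis3.S were 165.1 and 189.7 on the ICD arrays and 367.6 and 476.9 with MCI-HGR. For both homeologs, each array with MCI-HGR was above each array without it. The rise of meis3.L was 3.11-fold (log2 1.64 ± 0.14, SE with the block; adjusted p = 4.43e-10 with the block and 0.329 without), and it was 3.31-fold within number 1 and 2.92-fold within number 2. The rise of meis3.S was 2.37-fold (log2 1.24 ± 0.13; adjusted p = 9.99e-09 with the block and 0.325 without), and it was 2.23-fold and 2.51-fold within the numbers. A second, dimmer probe set of meis3.L differed by 0.76 on the log2 scale and missed the threshold over all probe sets (adjusted p = 0.371). One of the 7 probe sets left out carries both meis3 symbols, and it read 75.3 and 71.9 on the ICD arrays and 105.6 and 97.8 with MCI-HGR, again without overlap between groups. The other meis genes did not pass: meis2.L differed by -0.045 on the log2 scale, and meis1.S was above background on 2 arrays. pbx2.L, a partner of Hox and Meis proteins, read 1113.4 and 1424.8 on the ICD arrays and 1172.7 and 1411.5 with MCI-HGR, with a log2 difference of 0.031.

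**Figure D1:**
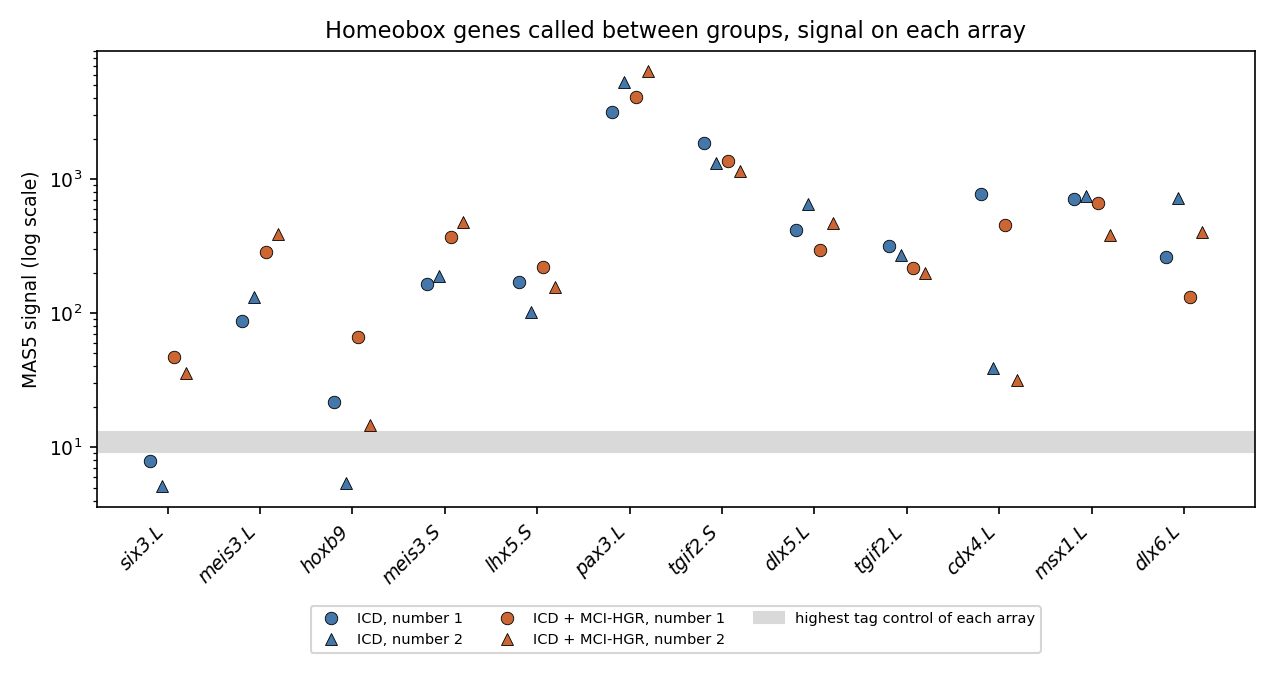
MAS5 signal (log axis) of the 12 homeobox genes called with the replicate number as a block, 1 point per array, with ICD arrays in blue and ICD+MCI-HGR arrays in orange, circles for number 1 and triangles for number 2. The grey band spans the highest tag control of the 4 arrays, from 9.2 to 13. Groups part without overlap for six3.L, meis3.L, meis3.S, tgif2.L and msx1.L, while for the other 7 genes the numbers differ by as much as the groups or more.

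Among genes of the anterior neural plate, six3.L, a regulator of forebrain and eye field, read 7.9 and 5.1 on the ICD arrays, below the tag controls, and 46.8 and 35.6 on the ICD+MCI-HGR arrays, above them. The groups did not overlap. Set against the tag control level of the ICD arrays in place of their own readings, the rise of six3.L was at least 3.58-fold. The fit used the signals as read (adjusted p = 4.76e-06 with the block and 0.215 without), and the bound itself was not tested. On both ICD arrays six3.L was below the filter level of 10.6, so it was tested through its signals with MCI-HGR. Its homeolog six3.S was above background on no array and was not tested. The LIM-homeobox gene lhx5.S, which marks forebrain, read 171.2 and 101.6 on the ICD arrays and 220.1 and 156.8 with MCI-HGR. It rose 1.41-fold (log2 0.49 ± 0.15, SE; adjusted p = 0.033 with the block and 1 without) although the groups overlapped, since the number 2 array with MCI-HGR was below the number 1 array without it. That call is close to the threshold and was lost after quantile normalization, median centring, a floor of 16 on the signal, and the mean of a gene's probe sets (adjusted p up to 0.0776).

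pax3.L, a regulator of the neural plate border, neural crest and hatching gland, read 3178.3 and 5235.2 on the ICD arrays and 4077.7 and 6319.3 with MCI-HGR, a rise of 1.24-fold (log2 0.32 ± 0.063, SE; adjusted p = 0.000625 with the block and 1 without). Numbers 1 and 2 gave 1.28-fold and 1.21-fold. The groups overlapped, because number 2 was 1.65-fold above number 1 in the ICD group and 1.55-fold in the ICD+MCI-HGR group. Without ICD replicate 1 the unblocked log2 difference was -0.044, and without ICD+MCI-HGR replicate 2 it was -0.00049. The call also rests on the probe set: of 5 for pax3.L, another bright one read 2764.7 and 3906.2 on the ICD arrays and 2560.4 and 3786.9 with MCI-HGR, a log2 difference of -0.078, and with the mean of the gene's probe sets the adjusted p was 0.94. The homeolog pax3.S read 30.4 and 5.3 on the ICD arrays and 32.4 and 5.3 with MCI-HGR and did not pass.

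hoxb9, a marker of the posterior neural tube in the frog, was the one hox gene of the 10 tested that rose. Its signals were 21.8 and 5.4 on the ICD arrays and 66.9 and 14.6 with MCI-HGR. Groups overlapped, since the number 2 array with MCI-HGR was below the number 1 array without it, and the number 2 ICD array was below background. With that array set to its tag control the rise was 2.12-fold. The adjusted p, 0.00368 with the block and 1 without, is that of the signals as read. A second probe set of hoxb9 read 24.4 and 2.9 on the ICD arrays and 22.3 and 13.7 with MCI-HGR. Its log2 difference of 1.06 missed the threshold over all probe sets (adjusted p = 0.315). That difference came from number 2, where the ICD array was below background, and in number 1 the probe set was not higher with MCI-HGR. Another one, below background on all 4 arrays, gave -2.48. The call was lost with a floor of 16 and with the mean of the gene's probe sets (adjusted p up to 0.0867).

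The largest fall was in dlx6.L, a distal-less gene of the neural plate border and cranial placodes. It read 259.8 and 726.3 on the ICD arrays and 131.9 and 399.4 with MCI-HGR, 1.89-fold lower with MCI-HGR (log2 -0.92 ± 0.12, SE; adjusted p = 9.82e-07 with the block and 1 without). Within the numbers it was 1.97-fold and 1.82-fold lower. dlx5.L, of the same border domain, read 416.4 and 649.7 on the ICD arrays and 296 and 466.3 with MCI-HGR, 1.4-fold lower (log2 -0.49 ± 0.11; adjusted p = 0.00197 with the block and 1 without), with 1.41-fold and 1.39-fold within the numbers. Both genes overlapped between groups, because number 2 was higher than number 1 in each group. Without 1 array the unblocked log2 difference of dlx6.L ran from -1.72, without ICD+MCI-HGR replicate 2, to -0.12, without ICD+MCI-HGR replicate 1. That of dlx5.L ran from -0.81, without ICD replicate 1 or ICD+MCI-HGR replicate 2, to -0.16, without either of the other arrays.

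The other 5 dlx genes did not pass. dlx6.S read 917.8 and 1867.9 on the ICD arrays and 863 and 1658.2 with MCI-HGR, a log2 difference of -0.13 with a 95% interval of -0.3 to 0.039 with the block. That interval does not hold the -0.92 of dlx6.L, but the difference between the homeologs was not tested. dlx3.S, of the dlx3 pair that is switched on by BMP signalling in future epidermis, read 2321.1 and 2450.1 on the ICD arrays and 2253.5 and 2432.3 with MCI-HGR. Its log2 difference was -0.027 with an interval of -0.17 to 0.12, and that of dlx3.L was 0.022.

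msx1.L, a BMP target of epidermis and neural plate border, read 704.2 and 743.6 on the ICD arrays and 664.7 and 380.3 with MCI-HGR. Groups did not overlap, but number 2 carried the fall: the log2 difference was -0.083 within number 1 and -0.97 within number 2 (log2 -0.53 ± 0.13 over both, SE; adjusted p = 0.00588 with the block and 1 without). Without ICD+MCI-HGR replicate 2 the unblocked difference was -0.12, and without ICD+MCI-HGR replicate 1 it was -0.93. The call was lost after quantile normalization, after median centring and with the mean of a gene's probe sets (adjusted p up to 0.133). msx1.S read 477.9 and 570.7 on the ICD arrays and 547.2 and 356.1 with MCI-HGR and did not pass (log2 -0.24; adjusted p = 0.357 with the block). It too was lower with MCI-HGR in number 2 alone, as was msx2.L, which read 82.5 and 96.5 on the ICD arrays and 134.7 and 78.1 with MCI-HGR.

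Both homeologs of tgif2, a TALE-class repressor, fell. tgif2.L read 313.6 and 270.2 on the ICD arrays and 216.7 and 198.3 with MCI-HGR, 1.4-fold lower and without overlap (log2 -0.49 ± 0.13, SE; adjusted p = 0.01 with the block and 1 without). Its second probe set differed by -0.41 on the log2 scale (adjusted p = 0.122 over all probe sets). tgif2.S read 1852.5 and 1311.8 on the ICD arrays and 1352.5 and 1138.6 with MCI-HGR, 1.26-fold lower with a narrow overlap (log2 -0.33 ± 0.084; adjusted p = 0.00741 with the block and 1 without). Its adjusted p was 0.0541 after median centring, and its unblocked difference ran from -0.58, without ICD replicate 2, to -0.08, without ICD replicate 1. tgif1.S did not pass, with a log2 difference of -0.024.

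cdx4.L, a caudal-type gene of the posterior embryo, is called lower, yet its groups differ far less than its numbers. It read 770.2 and 39.2 on the ICD arrays and 455 and 31.8 with MCI-HGR. With MCI-HGR it was 1.69-fold lower within number 1 and 1.23-fold lower within number 2 (log2 -0.53 ± 0.16 over both, SE; adjusted p = 0.0292 with the block and 1 without). Without ICD replicate 1 the unblocked log2 difference was 1.62 and without ICD+MCI-HGR replicate 2 it was 1.39, against -2.68 without ICD replicate 2 and -2.45 without ICD+MCI-HGR replicate 1. The call was lost in 4 of 6 blocked settings, with an adjusted p of up to 0.43, and a second probe set differed by -0.25 on the log2 scale (adjusted p = 0.777 over all probe sets).

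**Figure D2:**
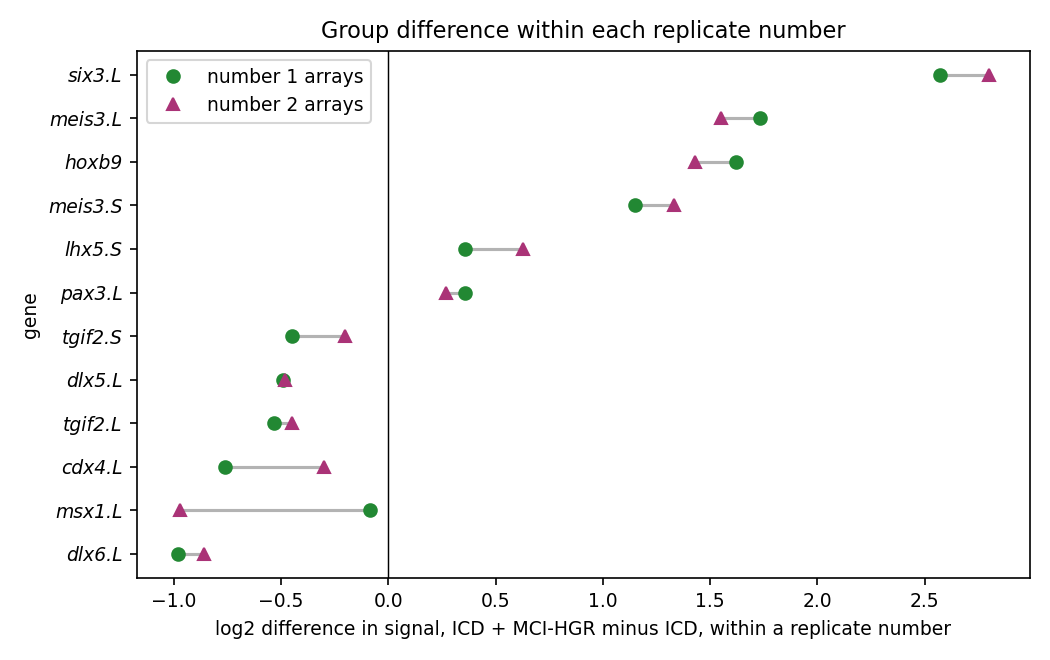
Log2 difference in signal, ICD+MCI-HGR minus ICD, within number 1 (circles) and within number 2 (triangles) for the 12 called homeobox genes, ordered by their mean difference, with a line joining the 2 values of a gene. All 12 have the same sign in both numbers, and the values lie closest for dlx5.L (-0.49 and -0.48) and farthest apart for msx1.L (-0.083 and -0.97).

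The 12 calls differed in how far they depended on the processing. meis3.L, meis3.S, six3.L, dlx6.L, dlx5.L and tgif2.L passed in all 6 settings run with the block, pax3.L and tgif2.S in 5, hoxb9 in 4, msx1.L in 3, and cdx4.L and lhx5.S in 2. With the block, the higher and lower counts were 6 and 6 as deposited, 5 and 4 after quantile normalization, and 5 and 3 with each array centred on its median. Among all genes tested these counts were 630 and 311, 486 and 278, and 564 and 187.

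No member of the ventx, otx, irx, gbx, pbx, pitx, nkx or pou families passed between groups. Of 6 ventx genes, BMP-induced repressors of dorsal fates, ventx2.1.S read 2119 and 2109.3 on the ICD arrays and 1817.4 and 1854.4 with MCI-HGR. Its groups did not overlap, but the log2 difference of -0.2 did not pass (adjusted p = 0.0892 with the block), and ventx2.1.L differed by -0.14. Of the otx genes of forebrain and midbrain, otx1.L read 343.8 and 627.7 on the ICD arrays and 423.1 and 765.5 with MCI-HGR (log2 0.29; adjusted p = 0.0733), while otx2.L differed by 0.0051. irx2.L, of a family that prepatterns neural tissue, differed by -0.066, and irx1.L and irx1.S differed by 0.0099 and -0.01. Both gbx2 genes, of the midbrain-hindbrain boundary, were lower in value in both numbers (log2 -0.57 for gbx2.1.S and -0.32 for gbx2.2.L). Of the POU genes, pou5f3.2.L, a frog relative of mammalian Oct4, read 5050 and 2273.1 on the ICD arrays and 4668.4 and 2739.9 with MCI-HGR, with a log2 difference of 0.078.

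All 4 nkx genes tested were lower in value with MCI-HGR in both numbers, and none passed with the signals as deposited. nkx2-6.L read 36.5 and 46.5 on the ICD arrays and 28.2 and 19.1 with MCI-HGR, without overlap (log2 -0.83; adjusted p = 0.0851 with the block). nkx6-2.L, of ventral neural tube, read 38.8 and 39.8 on the ICD arrays and 16.3 and 31.6 with MCI-HGR (log2 -0.79; adjusted p = 0.113). With a floor of 16 on the signal these 2 genes passed. nkx2-2.S had a log2 difference of -0.62 at signals from 8.1 to 15.3, near background, and nkx2-3.L one of -0.43. nkx2-3.S, left out by the filter, read 14.2 and 14.4 on the ICD arrays, above background, and 4.8 and 5.7 with MCI-HGR, below it. In the other direction, hoxa13.S, also left out by the filter, read 2.8 and 3 on the ICD arrays, below background. With MCI-HGR it had a mean of 14 ± 5.87 (SD, n = 2), above background on both arrays but only narrowly on number 2. Set against the tag controls of the arrays below background, the difference was at least 1.17-fold for hoxa13.S and 1.34-fold for nkx2-3.S. These bounds were not tested. Among genes tested, other wide differences that did not pass were hoxa11.S (log2 0.8) and pax2.L (log2 -0.57). pitx1.L, of the anterior ectoderm, had a log2 difference of 0.2 and opposite signs in the 2 numbers.

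Of 11 homeolog pairs with both genes tested, both members of meis3 and tgif2 were called between groups and in the same direction. In 3 pairs 1 member was called, dlx6.L, msx1.L and pax3.L. In the other 6 pairs neither was called.

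Most homeobox genes tested, like most of all genes tested, differed more between the replicate numbers than between the groups. Between the numbers, 26 of 69 (37.7%) were higher in number 1, beside 28.4% of all genes, and 16 (23.2%) were higher in number 2, beside 20.3% of all genes, at limma's adjusted p of 0.05 for the number term of the blocked fit. The gap between numbers was wider than the gap between groups in 52 of 69 (75.4%), beside 73.1% of all genes. It was over 2-fold in 24 of 69 (34.8%), beside 11.5% of all genes tested. The median signal of the homeobox genes was 69.1, against 181 over all genes tested, and the part of signal level in these shares was not tested. Testing the number was decided after the data were seen.

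**Figure D3:**
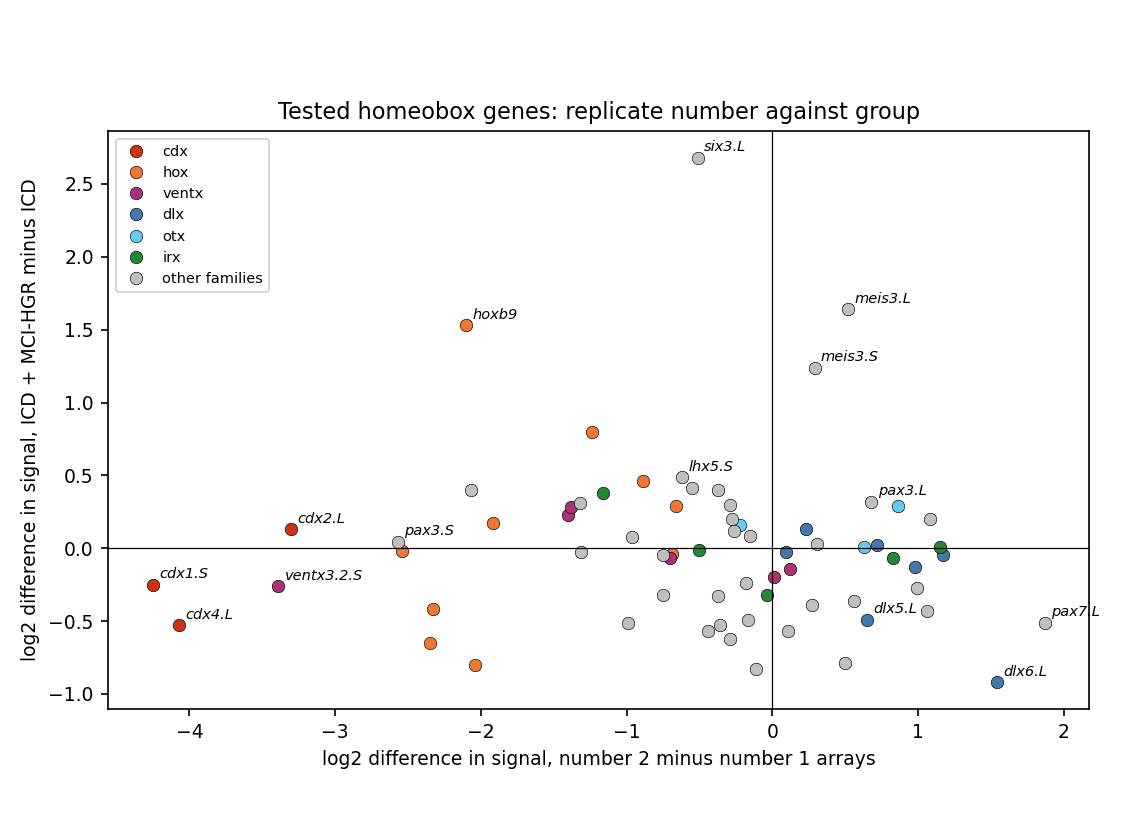
Log2 difference between replicate numbers (number 2 minus number 1, horizontal axis) against log2 difference between groups (ICD+MCI-HGR minus ICD, vertical axis) for the 69 homeobox genes tested, 1 point per gene, coloured by family. The points spread from -4.25 to 1.87 along the number axis and from -0.92 to 2.68 along the group axis, with cdx genes at the far left, dlx genes at or right of 0 and six3.L at the top. The 2.68 of six3.L is as read, from ICD signals below background, for which the text gives a bound of 3.58-fold.

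The posterior axis genes were higher in number 1. All 3 cdx genes and 7 of 10 hox genes tested passed in that direction and none in the other, with a median log2 difference, number 2 minus number 1, of -4.07 for cdx and -1.98 for hox. The filter used the mean over all 4 arrays. On both number 2 arrays hoxa7.L, hoxb4.S and hoxc5.L read below its level of 10.6, so they were tested through their number 1 signals. On the number 2 arrays hoxb9 read 5.4 and 14.6 and hoxa11.S 7.5 and 13.1. The mean log2 signal of each there was below that level too, so both also passed the filter through number 1. The hox count is thus not independent of the filter. cdx1.S read 1266.9 on number 1 and 42.1 on number 2 in the ICD group, a 30.1-fold gap, and 673.6 and 56 in the ICD+MCI-HGR group, a 12-fold gap (log2 -4.25 ± 0.19, SE; adjusted p = 1.54e-16). Its 2 dimmer probe sets gave -3.16 and -3.22. cdx4.L, with the signals given above, had gaps of 19.6-fold and 14.3-fold (adjusted p = 2.76e-17). cdx2.L read 227.3 on number 1 and 19.2 on number 2 in the ICD group and 206.2 and 25.3 in the other (adjusted p = 5.86e-13). For each cdx gene, both number 1 arrays were far above both number 2 arrays, whatever the group.

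Among hox genes, hoxc6.S was above background on all 4 arrays. It read 88.5 on number 1 and 10.5 on number 2 in the ICD group and 60.6 and 15 in the ICD+MCI-HGR group (log2 -2.54 ± 0.31, SE; adjusted p = 1.01e-07), while its difference between groups was -0.016. hoxc5.L, hoxb4.S and hoxa7.L were above background on number 1 alone, with gaps of at least 4.12-fold, 3.31-fold and 3.18-fold against the tag controls of number 2. hoxd10.L read 57.2 on number 1 and 9.2 on number 2 in the ICD group and 39.1 and 17 in the other. For hoxb9, which rose with MCI-HGR, number 1 was 3.16-fold above number 2 over both groups with the one array below background set to its tag control. The 7 hox genes that passed (hoxa7.L, hoxa11.S, hoxb4.S, hoxb9, hoxc5.L, hoxc6.S and hoxd10.L) came from all 4 hox clusters. Of the 15 hox genes left out by the filter, none was above background on more than 2 arrays.

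The ventx genes divided. ventx3.2.S read 666.5 on number 1 and 65.7 on number 2 in the ICD group and 573.8 and 53.1 in the ICD+MCI-HGR group, gaps of 10.1-fold and 10.8-fold (log2 -3.39 ± 0.14, SE; adjusted p = 5.83e-17). ventx1.1.L, ventx1.1.S and ventx1.2.S were higher in number 1 too, with log2 differences of -1.4, -0.7 and -1.38. ventx2.1.L and ventx2.1.S did not pass, at 0.12 and 0.011. ventx1.1.L had the call with its brightest probe set and lost it with the mean of its probe sets, where the difference was -0.0096.

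The dlx and otx genes went the other way. Of 7 dlx genes 5 were higher in number 2 and none in number 1, with a family median of 0.72, and of 3 otx genes otx1.L and otx2.L were higher in number 2. dlx6.L had the widest gap of these, 2.8-fold in the ICD group and 3.03-fold in the ICD+MCI-HGR group (log2 1.54; adjusted p = 3.08e-11). dlx6.S had gaps of 2.04-fold and 1.92-fold (adjusted p = 1.42e-10). dlx2.L read 80.2 on number 1 and 213 on number 2 in the ICD group and 92 and 174.8 in the other. otx1.L had gaps of 1.83-fold and 1.81-fold (log2 0.86; adjusted p = 9e-08). Of the dlx genes, dlx3.S was the closest between numbers, at a log2 difference of 0.094.

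**Figure D4:**
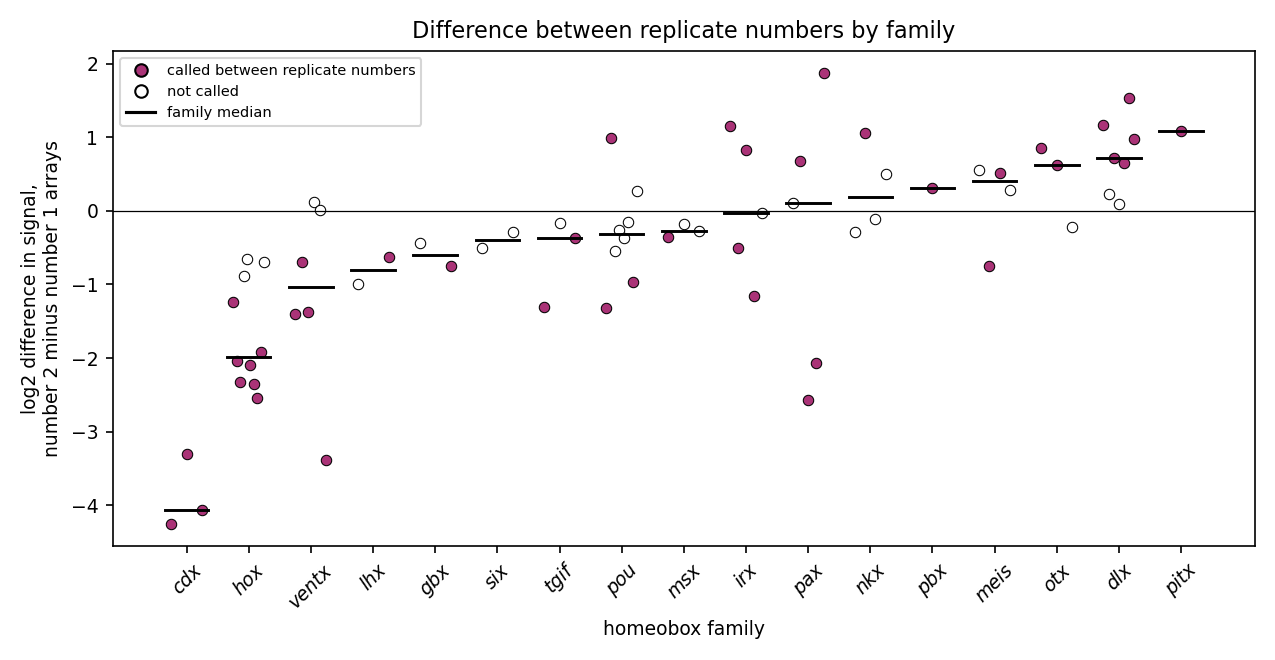
Log2 difference in signal between the replicate numbers (number 2 minus number 1) for the 69 tested homeobox genes by family, 1 point per gene, filled where the number term passed an adjusted p of 0.05, with a bar at each family's median. Families are ordered by their median, from -4.07 for cdx and -1.98 for hox to 0.72 for dlx and 1.08 for the single pitx gene, and the pax and irx families hold called genes on both sides of 0.

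Other families held genes of both directions. In the pax family pax6.L, an eye and forebrain regulator, read 108.5 and 164.1 on the number 1 arrays and 29.6 and 34.1 on the number 2 arrays (log2 -2.07; adjusted p = 6.27e-09). pax7.L, of the neural plate border, was below background on number 1 at 11.2 and 11.1 and read 57.7 and 28.6 on number 2. The gap was at least 3.2-fold (adjusted p = 7.35e-05 for the signals as read). The pax3 and irx1 homeologs had opposite calls. That of pax3.L was lost with the mean of its probe sets, where the difference was 0.11. Its 2 bright probe sets gave 0.68 and 0.53, and the dimmer ones 0.18, -0.87 and -1.58. On both number 2 arrays pax3.S read 5.3, below the filter level, so it was tested through its number 1 signals. The same holds for irx3.L, called higher in number 1, which read 9.3 and 9.4 on number 2. irx1.L read 157.7 and 145 on number 1 and 318.8 and 351.5 on number 2, whereas irx1.S read 260.3 and 265.4 on number 1 and 188.5 and 182.3 on number 2. The call of irx1.S was lost with each array centred on its median. irx2.L was higher in number 2 (log2 0.83; adjusted p = 1.21e-07). Of the 11 homeolog pairs, dlx6 and ventx1.1 had both members called by number in the same direction.

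Of the POU genes, pou5f3.2.L was 2.22-fold higher in number 1 in the ICD group and 1.7-fold in the ICD+MCI-HGR group (log2 -0.96; adjusted p = 4.1e-11). pou5f3.1.L did not pass, at -0.15. pou2f1.S, a broadly expressed octamer-binding factor, was called higher in number 1 at -1.32, but its 3 probe sets disagreed, at -1.32, -1.41 and 1.03. pbx2.L was called higher in number 2 at 0.31, but higher in number 1, at -0.51, with the mean of its probe sets. Its dimmer probe sets gave -0.55, -0.69 and -1.12. meis3.L was higher in number 2 at 0.52 and meis3.S did not pass at 0.29, so the gap between numbers for meis3 was smaller than that between groups. tgif1.S was higher in number 1 (log2 -1.31; adjusted p = 2.05e-08).

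These directions were compared under other scalings of the arrays. Centring each array on its median moved the median number difference of all genes from -0.1 to 0.16, and quantile normalization moved it to -0.012. Called homeobox genes higher in number 1 and higher in number 2 then numbered 19 and 21 after centring and 22 and 17 after quantile normalization, against 26 and 16 as deposited. In either direction together, 58.0% of homeobox genes passed after centring, beside 49.0% of all genes. After quantile normalization it was 56.5%, beside 43.0%, and as deposited 60.9%, beside 48.7%. All 3 cdx genes remained higher in number 1 in both, with family medians of -3.81 and -3.92, and the hox family had medians of -1.72 and -1.67. With signals below 16 set to 16 the hox median was -0.96 and that of cdx was -4.07. That floor ended the call of hoxa11.S and moved hoxa7.L from -2.04 to -0.93 and hoxb4.S from -2.33 to -0.99. It also added a call of hoxd13.S, not called as deposited, so that 7 of 10 hox genes were called. hoxa11.S lost its call after quantile normalization too. The dlx family had medians of 0.99 after centring and 0.67 after quantile normalization. Of the 42 genes called by number, 41 kept their sign in all settings run, with pbx2.L the exception. In each setting they were tested in, 30 passed, and these include pbx2.L, whose calls went in opposite directions.

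Markers of other cell types moved with the replicate number beside the homeobox genes. Among all genes tested 28.4% were higher in number 1 and 20.3% in number 2. Of 15 mesoderm markers tested, 9 were higher in number 1 and 1 in number 2. The signals of the 24 on the array summed to 4001 and 2226 on the number 1 arrays and to 533 and 455 on the number 2 arrays. The T-box genes of early mesoderm had the widest gaps. tbxt.S (brachyury) read 930.4 and 474.1 on number 1 and 12 and 25.8 on number 2, and vegt.S read 1221.2 and 626.8 on number 1 and 18.4 and 26.9 on number 2. wnt8a.L, a ventral and lateral mesoderm ligand named here after its values were seen, read 182.8 and 96.6 on number 1 and 16.5 and 23.6 on number 2. Of 24 mesoderm markers on the array, 2 were above background on no array.

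**Figure D5:**
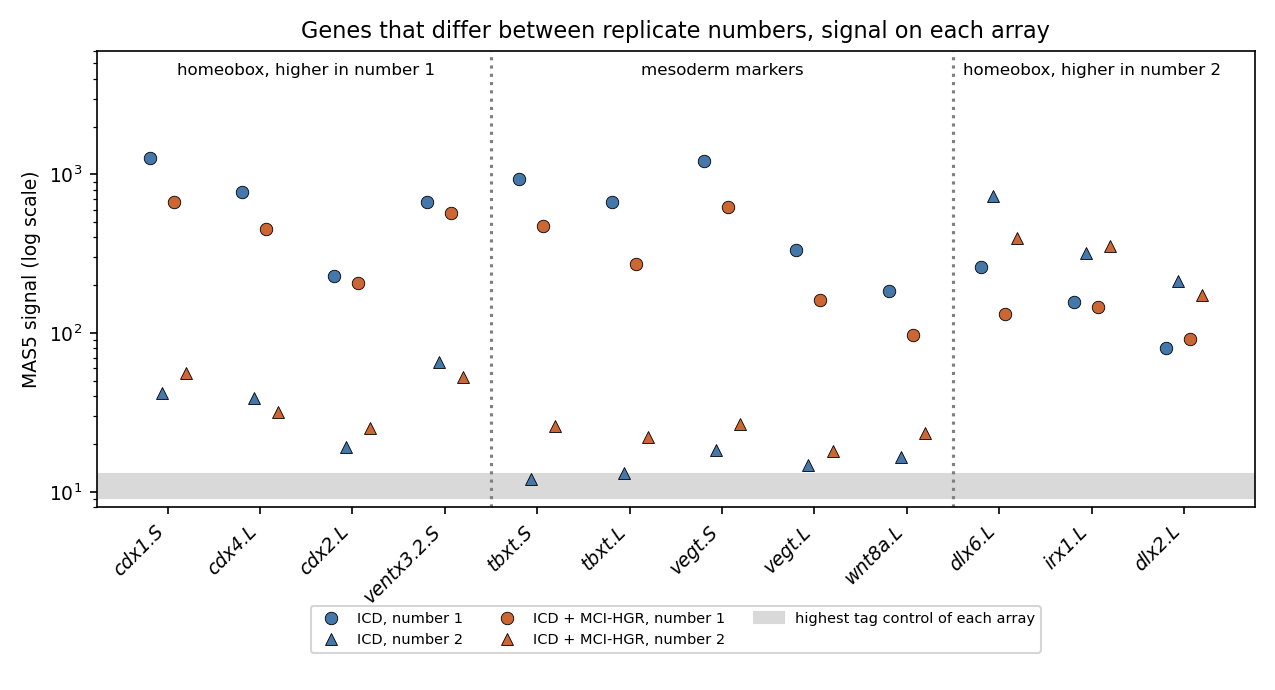
MAS5 signal (log axis) on each array for 4 homeobox genes higher in number 1, 5 mesoderm markers and 3 homeobox genes higher in number 2, with ICD in blue and ICD+MCI-HGR in orange, circles for number 1 and triangles for number 2. In the cdx genes, ventx3.2.S and the mesoderm markers both circles lie above both triangles, in dlx6.L, irx1.L and dlx2.L both triangles lie above both circles, and the grey band spans the highest tag control of the arrays (9.2 to 13).

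Neural markers also leaned to number 1 and epidermal ones to number 2. Of 13 neural markers tested 8 were higher in number 1 and 2 in number 2. sox3.L, an early neural gene, read 1932.1 and 1763.7 on number 1 and 388.4 and 418.4 on number 2. Of 18 epidermis markers 14 were higher in number 2 and 1 in number 1, among them itln1.L, an intelectin of the larval skin, at 164.9 and 227 on number 1 and 1049.5 and 992.8 on number 2. All 4 cement gland markers tested, the homeologs of ag1 and agr2, were higher in number 2. No hatching gland gene of that list was among those tested. What these markers contribute to the homeobox differences was not tested, and in bulk tissue fewer cells of a type and less RNA per cell cannot be told apart. Replicate number also cannot be told apart from anything that the arrays of a number shared.

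Within each number, 1 array of each group could be compared for cdx and T-box genes. In number 1, cdx1.S differed by -0.91 on the log2 scale with MCI-HGR, cdx4.L by -0.76 and cdx2.L by only -0.14. In the same number tbxt.S differed by -0.97 and vegt.S by -0.96. In number 2, cdx1.S differed by 0.41, cdx4.L by -0.3 and cdx2.L by 0.4, beside 1.1 for tbxt.S and 0.55 for vegt.S. Of these genes cdx4.L alone passed between groups, and in number 2 tbxt.S and vegt.S read at most 26.9. Whether a group difference differed between the numbers was not tested. Of the 15 mesoderm markers tested, 3 fell with MCI-HGR and 1 rose, with a median log2 difference of -0.38. Among all genes tested 3.32% fell and 6.72% rose. fgf8.L, a growth factor of posterior mesoderm, fell by 0.93 on the log2 scale (adjusted p = 0.000499 with the block), tbx6.L, a T-box gene of paraxial mesoderm, by 0.78 (adjusted p = 0.0157) and hba3.L, a globin, by 0.9 (adjusted p = 0.034), while gsc.S rose. The part of these markers in the fall of cdx4.L was not tested.

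Other homeobox genes, outside the families above, were followed as a list of 52 on the array, of which 22 were tested. With MCI-HGR 2 rose and 3 fell, beside 6.72% and 3.32% of all genes tested. gsc.S (goosecoid), a gene of the dorsal organizer and prechordal mesoderm, read 23 and 8.8 on the ICD arrays and 192.7 and 38.4 with MCI-HGR. Its rise was 5.67-fold with the one ICD array below background set to its tag control. The signals as read had an adjusted p of 4.82e-08 with the block. gsc.S is also the mesoderm marker that rose. The homeolog gsc.L, near background, did not pass, at a log2 difference of 0.42 (adjusted p = 0.712 with the block). hesx1.L, of the anterior neural plate and pituitary, read 40.3 and 30.7 on the ICD arrays and 148.8 and 57.7 with MCI-HGR, 2.63-fold (adjusted p = 7.91e-05). Its homeolog hesx1.S, near background, did not pass, at a log2 difference of -0.38. Both homeologs of not, a notochord homeobox gene, fell: not.L read 890.7 and 201.1 on the ICD arrays and 382.6 and 103.3 with MCI-HGR (2.13-fold lower; adjusted p = 9.65e-08), and not.S was 2.51-fold lower (adjusted p = 1.7e-06). The list's median log2 difference was 0.034. By number, 10 of the 22 were higher in number 1 and 2 in number 2, beside 28.4% and 20.3% of all genes.

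Of 23 BMP targets and feedback genes tested, the signalling context of dlx, msx and ventx, 2 rose and 2 fell, with a median log2 difference of -0.036. Among all genes tested 6.72% rose and 3.32% fell. id4.S and id2.S, inhibitors of basic helix-loop-helix factors, rose 1.5-fold (adjusted p = 7.49e-05) and 1.34-fold (adjusted p = 0.000222). smad6.S, an inhibitor of BMP signalling, fell by 0.51 on the log2 scale (adjusted p = 0.00129), and bmp4.L, the ligand, fell by 0.54 (adjusted p = 0.0117), while bmp4.S differed by -0.048. Between numbers, 11 were higher in number 2 and 3 in number 1, beside 20.3% and 28.4% of all genes tested. gata2.L, a BMP-induced epidermal factor, read 1858 and 2070.8 on number 1 and 3666.4 and 3573.7 on number 2.

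Beside the rise of meis3, six3.L and lhx5.S, 3 of 13 neural markers rose with MCI-HGR and 1 fell. With the block, 6.72% of all genes tested rose and 3.32% fell. sox2.L, a neural plate and progenitor gene, read 1152.2 and 399.1 on the ICD arrays and 1824.7 and 1054.5 with MCI-HGR, 2.05-fold higher (adjusted p = 3.94e-08 with the block). zic2.L rose 1.71-fold (adjusted p = 9.17e-05) and ncam1.L 1.56-fold (adjusted p = 0.00947), and sox11.S fell by 0.56 on the log2 scale (adjusted p = 0.000773). The homeologs zic2.S and ncam1.S did not pass and were lower in value, at log2 differences of -0.18 and -0.38. The list's median was -0.21, opposite in sign to most of its calls. Beside the falls of dlx5.L and dlx6.L, 3 of 4 cement gland markers and 1 of 6 neural crest markers fell. Among them were ag1.S at 1.83-fold lower (adjusted p = 2.8e-09) and snai1.S at 2.27-fold lower (adjusted p = 0.000105). Of 18 epidermis markers 5 rose and 5 fell. All 14 multiciliated cell markers tested rose. They include the targeted gene mcidas.S, whose rise the injection itself can give and whose signal is part of the sums that follow. They also include tekt2.L, which read 10.1 and 7.7 on the ICD arrays, below the filter level of 10.6. It was thus tested through its signals with MCI-HGR. The signals of the 15 on the array summed to 1466 and 1489 on the ICD arrays and to 16870 and 12540 with MCI-HGR. The part of these cell types in the homeobox differences was not tested, and without the block none of these lists had a gene that passed.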

How the data were processed

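Total RNA of 4 explant samples was labelled and hybridised, 1 sample per array. The deposited values are linear intensities, 1 for each probe set of an array, and come from MAS5 according to the submitters' processing notes. The version of MAS5 and its scaling target were not given in the sources used here. This algorithm handles arrays one by one, so differences in signal distribution between arrays remain.

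Control probe sets (96 of 32635) were dropped and the others were put on the log2 scale. A filter on the mean log2 signal took out the lowest 25%, below a signal of 10.6, and kept 24404 probe sets. Symbols came from the platform annotation: 15495 probe sets had 1 gene symbol, 279 several and 16765 none here. Of the 111 homeobox genes, 106 matched the RefSeq gene table and 0 were renamed. Neither sequences nor coordinates were used.

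The group test was limma 3.58.1 (R 4.3.3; lmFit and eBayes, trend by intensity). It was two-sided, and p-values were adjusted by Benjamini-Hochberg over 9380 genes, with a threshold of 0.05. The main fit had the group as its term; a fit that takes the replicate number as a block is printed beside it, because arrays of a number were alike. The deviations of same-numbered arrays from their group means had a correlation of 0.745, over 2 pairs, and the labels do not say what a number shares. With the block each gene had 1 residual degree of freedom of its own, against a prior of 26.2 estimated over all genes. The SEs, intervals and p-values of that fit thus rest mostly on the pooled spread, not on a gene's own. For msx1.L the SE of 0.13 stands beside differences of -0.083 and -0.97 within the numbers. "At least" folds and values with an array set to its tag control use each array's highest of 17 tag controls. P-values printed near them come from the fits to the signals as read.

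Named homeobox genes were those called in either fit, the brightest tested member of each family, the 5 largest differences that did not pass among genes above background on both arrays of a group, and the homeologs of these. From each list up to 4 called genes were named. Genes named for their difference between replicate numbers were chosen after their values were seen. The homeobox genes and the lists were chosen with earlier results of these data known. Alternatives were other filters, scalings, floors, the variance model, the probe set rule, the block and leaving out each array.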

Additional observations from a re-analysis of the deposited data

How the results depend on the processing

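Without the block, 0 homeobox genes were called in either direction under all 9 other settings of filter, scaling, floor, pseudocount, probe set rule and variance model, and without any 1 array. The replicate block gave 6 higher and 6 lower, beside 630 and 311 of all 9380 genes. Block and quantile normalization gave 5 and 4, beside 486 and 278 of all genes. Block and median centring gave 5 and 3, beside 564 and 187. Block and no filter gave 6 and 6 of 111, beside 586 and 279 of 11303 genes. Block and a floor of 16 gave 4 and 7 of 67, beside 602 and 300 of 9243 genes. Block and the mean of a gene's probe sets gave 3 and 4, beside 489 and 233 of 9380 genes. Block and all probe sets tested, a setting added after the data were seen, gave 5 and 5, beside 1142 and 551 of all probe sets. The median log2 difference of the homeobox genes stayed between -0.046 and 0.005 in the settings that kept all arrays and ran from -0.19 to 0.15 when 1 array was left out. pax3.L reversed to -0.044 without ICD replicate 1 and to -0.00049 without ICD+MCI-HGR replicate 2, and cdx4.L reversed to 1.62 and 1.39 without the same arrays. Leaving out 1 array gave -0.044 to 0.68 for pax3.L and -2.68 to 1.62 for cdx4.L. Leaving out 1 array leaves the replicate numbers unequal between the groups. The filter on low signals left 42 of 111 genes out of the main fit, and without the filter none of these was called, with the block or without it. What a replicate number shares was not tested, and 2 arrays per group limit every value.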
